A study of Homo sapiens with 6 samples.

Results

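The cytosolic and mitochondrial heat shock chaperones were examined by RNA-seq in NCI-H460 cells with stable knockdown of PRMT5. The set was a list of 45 gene symbols, taken by name: the heat shock factors HSF1 and HSF2, the HSP70, HSP110 and HSP90 families, the mitochondrial chaperonin, small heat shock proteins, BAG proteins with HSPBP1, HSP70 and HSP90 co-chaperones, and the CCT ring. These symbols matched 46 of the 58825 gene records, because HSPA14 has 2 records, and all 46 were among the 20295 records that passed the filter on low counts and were tested. The rule for membership used gene names alone, although the list was drawn up with earlier results of these data known.

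NCI-H460 is a human large cell lung carcinoma line, which the labels call lung adenocarcinoma. The cells were infected with lentivirus carrying a control shRNA, called NC-shRNA (3 libraries), or an shRNA against PRMT5, called PRMT5-shRNA (3 libraries). Both groups thus carry an shRNA vector. The labels name GFP as the target of the control, whereas the paper calls it a control shRNA and names no target. PRMT5 is the main enzyme for symmetric dimethylation of arginine. According to the methods, stable cells were used in 3 biological replicates, and which of the designed PRMT5 hairpins the libraries carry was not given in the sources used here. The labels do not say that the libraries came from separate cultures, so p-values measure the spread between these libraries.

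Total estimated counts ranged from 53531257 to 70518401 per library. PRMT5 itself had 143, 127 and 128 CPM under NC-shRNA and 45.8, 45.6 and 38.3 CPM under PRMT5-shRNA, a log2 change of -1.62 (standard error, SE, 0.0943) with an edgeR adjusted p of 0.0063. CPM are counts scaled to a common library size, here after TMM normalization. NC-shRNA replicate 1 stood apart for the chaperones: it was the highest of the 3 NC-shRNA libraries for 38 of the 46 records, against 36.8% of all genes tested. Many values that moved by more than 1.5 times when it was left out are given with and without it, but not all of them. Of the epithelial markers, KRT7, KRT8, KRT18 and KRT19 were abundant, whereas EPCAM and CDH1 were low, at 0.32 to 0.52 and 0.10 to 0.30 FPKM (counts per kilobase of transcript, scaled by library total). The fold changes of these 6 markers had a median of -0.14, with 5 of 6 negative. KRT8 was at -0.23 (edgeR adjusted p = 0.25, groups apart) and KRT18 at -0.23 (edgeR adjusted p = 0.40, groups overlapping), or -0.15 for KRT18 without NC-shRNA replicate 1. The part of these markers in the chaperone values was not tested.

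Heat shock chaperones bind unfolded protein and use cycles of ATP hydrolysis to refold it or pass it on. HSP70 takes up nascent and misfolded chains with the help of exchange factors such as the HSP110 and BAG proteins, HSP90 matures kinases and steroid receptors with a set of co-chaperones, and the CCT ring folds actin and tubulin. In the mitochondrial matrix, HSPD1 and HSPE1 form the folding cage. Many of these genes are induced together by the transcription factor HSF1, which binds inverted repeats of the letters GAA, called heat shock elements.

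Promoter sequence was searched for these letters in RefSeq windows of GRCh38.p14, each from 250 bases before to 50 bases after an annotated start. Of the 45 symbols, 36 had a window. The search used runs of 3 units, GAANNTTCNNGAA or its reverse complement TTCNNGAANNTTC, where N is any base. The stretches that hold such a run are shown because they are the only members with it, with the letters of the run in capitals and each written in the direction of the gene.

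HSP90AA1, chr14:102087100-102087152, minus strand: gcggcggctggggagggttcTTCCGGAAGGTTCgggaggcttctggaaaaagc
HSP90AB1, chr6:44247758-44247863, plus strand: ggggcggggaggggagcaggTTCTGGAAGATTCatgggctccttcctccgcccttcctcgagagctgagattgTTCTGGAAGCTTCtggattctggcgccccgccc
HSPA8, chr11:123062334-123062386, minus strand: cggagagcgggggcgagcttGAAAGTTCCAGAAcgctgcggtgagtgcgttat
HSPA8, chr11:123062159-123062211, minus strand: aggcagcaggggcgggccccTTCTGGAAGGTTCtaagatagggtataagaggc
HSPA6, chr1:161524446-161524498, plus strand: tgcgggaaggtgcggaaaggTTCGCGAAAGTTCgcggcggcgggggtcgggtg
HSPD1, chr2:197500048-197500090, minus strand: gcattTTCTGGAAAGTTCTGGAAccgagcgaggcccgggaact
CHORDC1, chr11:90223067-90223129, minus strand: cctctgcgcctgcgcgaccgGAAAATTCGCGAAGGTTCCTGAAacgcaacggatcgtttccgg

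In these windows, the HSP90AA1 run lay at bases -88 to -76 from its start, those of HSP90AB1 between -165 and -100, and those of HSPA8 at -230 to -218 and -55 to -43. In the GENCODE 29 annotation, the HSPA8, HSP90AA1 and CHORDC1 stretches overlap exons of longer transcripts of the same gene and the HSP90AB1 stretch lies in an intron of it. The HSPD1 stretch overlaps exons of both HSPD1 and HSPE1, which lie head to head on opposite strands, and the HSPA6 stretch lies before the gene, within the record AL590385.2 on the same strand.

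**Figure D1:**
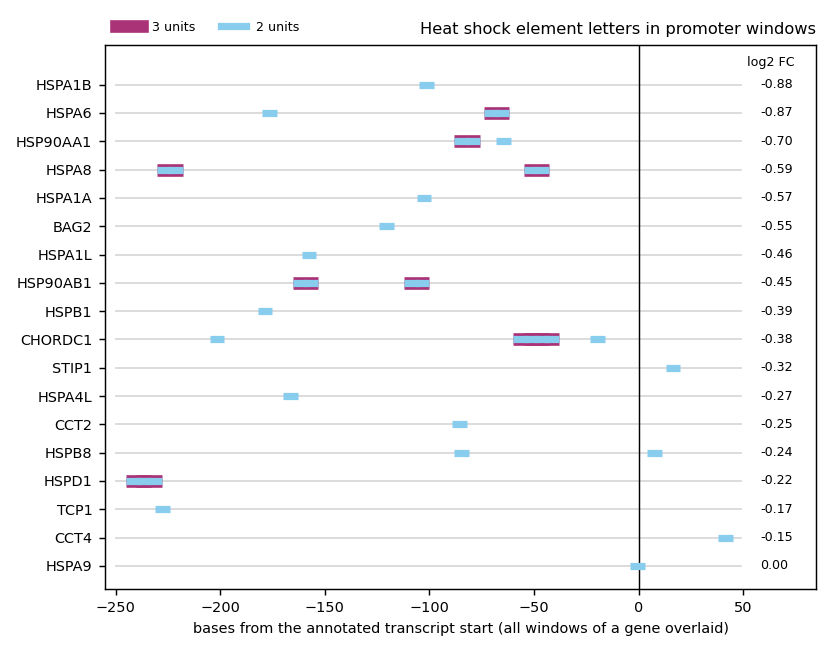
Heat shock element letters in the promoter windows of the 18 members that hold at least 2 adjoining units, with members in rows ordered by log2 fold change (printed at the right). The x axis is the distance in bases from the annotated start, dark bars are runs of 3 units and light bars runs of 2 units, which also lie inside the longer runs. Runs of 3 units occur in 6 members.

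The run of 3 units was present in 6 of the 36 members with a window (16.7%) and in 166 of all 27305 genes with a window (0.608%). Runs of 2 units, GAANNTTC or TTCNNGAA, were present in 18 of the 36 members and in 16.2% of all genes. A match of letters is a description and not a binding site, and factor binding was not measured here.

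Across the whole set, chaperone transcripts were lower in PRMT5-shRNA than in NC-shRNA libraries by small amounts. The median log2 fold change of the 46 records was -0.24, against 0.01 for all genes tested and -0.02 for the 9963 genes with a mean of at least 10 CPM. The fold change was negative for 39 records and positive for 7. At an unadjusted edgeR p under 0.05, 24 records were lower and 1 was higher, where 6.29% of all genes tested were lower and 6.54% higher. Of the 43 records with a mean of at least 10 CPM, 23 were lower at this threshold, against 9.84% of all such genes.

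No member passed edgeR's quasi-likelihood test at a Benjamini-Hochberg adjusted p under 0.05, which 14 of all genes tested (0.069%) did. The smallest adjusted p values were 0.069 for HSP90AA1, 0.09 for BAG2, 0.10 for HSPH1 and 0.11 for CCT6A. DESeq2, whose adjusted p was available for 45 records, called 12 lower and 1 higher at the same threshold, where 1.36% and 1.81% of its 16723 genes were called, and edgeR's likelihood ratio test called 6 lower, against 0.32% of all genes tested. The 12 were HSP90AA1, HSP90AB1, HSPH1, HSPA1B, HSPD1, HSPE1, BAG2, AHSA1, FKBP4, CHORDC1, CCT6A and CCT8, with DESeq2 adjusted p from 1.5e-08 for HSP90AA1 to 0.033 for CCT8, and the higher record was HSPA14 ENSG00000284024. The 6 of the likelihood ratio test, HSP90AA1, HSP90AB1, HSPH1, HSPE1, BAG2 and AHSA1, were all among the 12. In CPM, 27 records had all knockdown libraries below all controls and 1 record had all of them above, where 10.7% and 11.0% of all genes were so ordered.

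Without NC-shRNA replicate 1, 20 records were lower at p under 0.05 (4.49% of all genes) and the median log2 fold change was -0.19. In that setting HSF1 and CRYAB joined HSPA14 ENSG00000284024 as higher at p under 0.05, where 5.47% of all genes were higher. Of the 25 records past p under 0.05 in either direction, 18 stayed past it with each library left out in turn, and HSPA2, HSPA4, HSPA8, HSPA14 ENSG00000187522, HSPB8, CCT2 and CCT7 did not. How many of all genes past p under 0.05 stayed past it in this way was not counted, so the 18 have no background share. Because RNA was taken in bulk, a lower level in fewer cells and in all cells cannot be told apart.

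**Figure D2:**
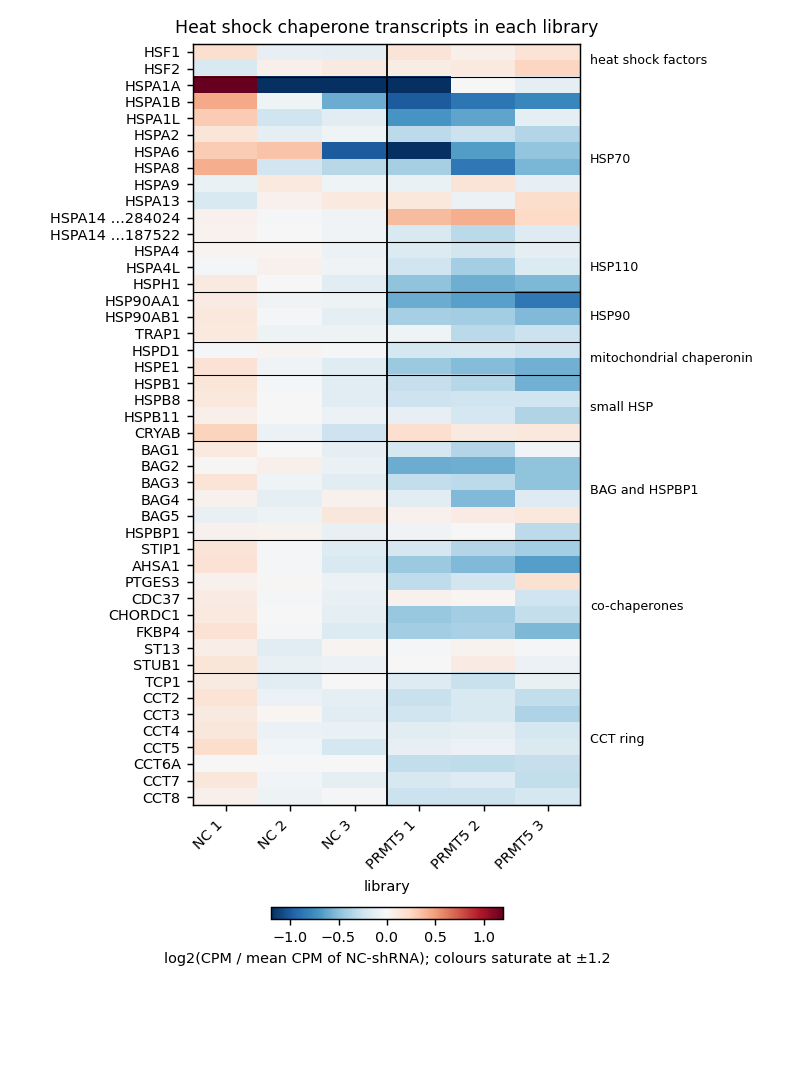
Level of each heat shock chaperone record (rows, grouped by class) in each library (columns, NC for NC-shRNA and PRMT5 for PRMT5-shRNA, with replicate number), as log2 of CPM over the NC-shRNA mean, with colours limited at the printed bound. Most rows are bluer in the PRMT5-shRNA columns, whereas HSPA1A varies from library to library in both groups.

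Together, the members held 1.16, 1.06 and 1.04% of summed FPKM under NC-shRNA and 0.951, 0.898 and 0.875% under PRMT5-shRNA. The groups did not overlap, with an exact two-sided permutation p of 0.10, which is the smallest that 3 against 3 libraries allow. By level per length, HSP90AB1 was the most abundant record at a mean of 847 FPKM in NC-shRNA, followed by HSPD1 at 341, HSPA8 at 286 and HSP90AA1 at 269 FPKM. The same 4 records held the first 4 places in PRMT5-shRNA, at means of 647, 306, 199 and 173 FPKM. In CPM, which are not divided by length, HSPD1, HSPA8 and HSP90AA1 were close under NC-shRNA, at means of 1676, 1663 and 1685. Their order by FPKM in that group thus rests on the gene lengths used.

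The fold changes were set side by side by class. The median was -0.45 for the 3 HSP90 records, -0.38 for the 10 HSP70 records, -0.37 for the 2 subunits of the mitochondrial chaperonin and -0.27 for the 3 HSP110 records. It was -0.23 for the 4 small heat shock proteins, the 6 BAG and HSPBP1 records and the 8 CCT subunits alike, -0.21 for the 8 co-chaperones and 0.14 for the 2 heat shock factors. Without NC-shRNA replicate 1 the HSP70 median was -0.21, nearer to 0 than the -0.27 of HSP110 and the -0.32 of the mitochondrial chaperonin, and the CCT median was -0.15. Differences between classes were not tested. Members of a class also differed among themselves, from -0.70 to -0.21 in HSP90, from -0.88 to 0.35 in HSP70 and from -0.55 to 0.09 among BAG proteins and HSPBP1.

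**Figure D3:**
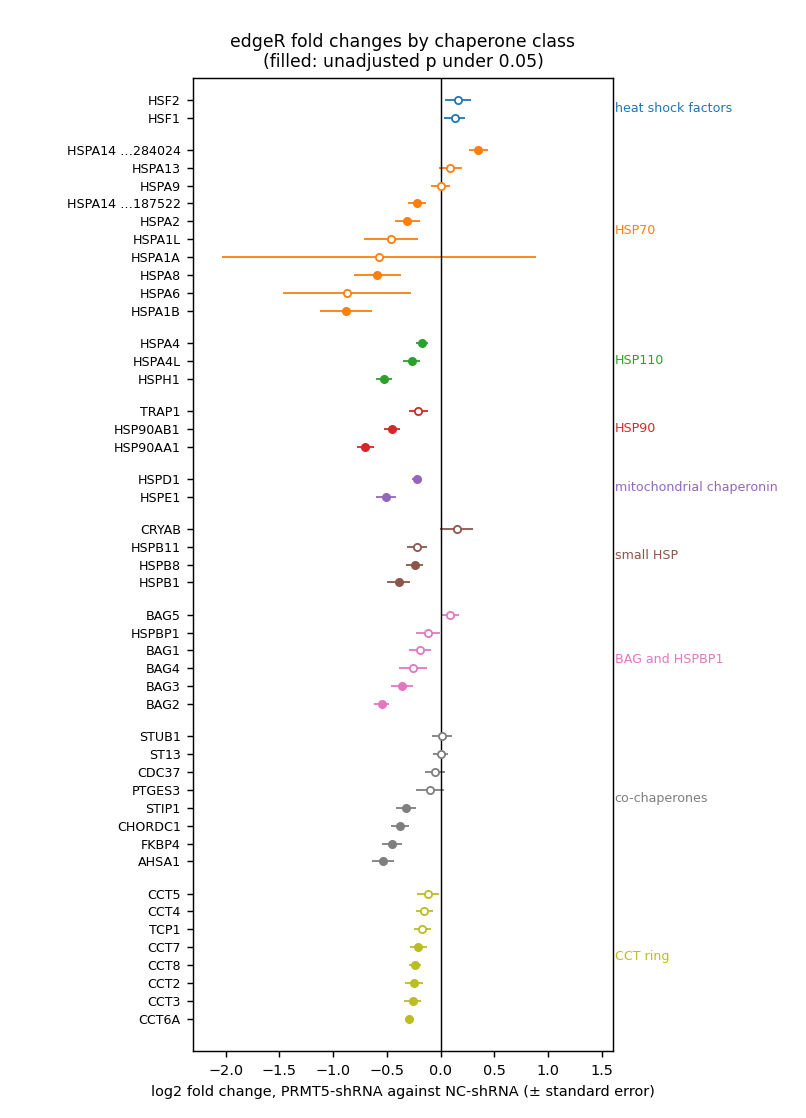
edgeR log2 fold change of each record, PRMT5-shRNA against NC-shRNA (x axis, with standard error), grouped and coloured by chaperone class. Filled points have an unadjusted p under 0.05, and HSP90AA1 at -0.70, BAG2 at -0.55, AHSA1 at -0.54 and HSPH1 at -0.53 lie far to the left with short error bars.

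The heat shock factors had fold changes above 0, neither past a p of 0.05. HSF1, the main activator of the heat shock response, had 40.9, 33.6 and 33.2 CPM under NC-shRNA and 39.9, 37.5 and 40.2 CPM under PRMT5-shRNA, with a log2 change of 0.13 (SE 0.101, edgeR adjusted p = 0.64). HSF2, a related factor, had 9.25, 11.0 and 11.3 CPM against 11.2, 11.4 and 12.6 CPM, with a log2 change of 0.16 (SE 0.122, edgeR adjusted p = 0.63). The groups overlapped for both genes. Without NC-shRNA replicate 1 the log2 changes were 0.23 for HSF1 and 0.08 for HSF2, and those of HSF1 were 0.08 and 0.07 without NC-shRNA replicate 2 or 3.

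The HSP90 class held the lowest adjusted p of the set. HSP90AA1, the stress-inducible cytosolic HSP90, had 1804, 1640 and 1612 CPM under NC-shRNA and 1112, 1075 and 929 CPM under PRMT5-shRNA. All 3 knockdown libraries were below the controls, at a mean of 61.6% of the NC-shRNA level, and the log2 fold change was -0.70 (SE 0.0825, edgeR adjusted p = 0.069). HSP90AB1, the constitutive form, had 3291, 2972 and 2778 CPM against 2285, 2255 and 2081 CPM, a log2 change of -0.45 (SE 0.0745, edgeR adjusted p = 0.14). Its groups were also apart, with a knockdown mean at 73.2% of control.

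TRAP1, the mitochondrial HSP90, had 502.8, 444 and 445 CPM under NC-shRNA and 447, 371 and 389 CPM under PRMT5-shRNA. The groups overlapped, and the log2 fold change was -0.21 (SE 0.088, edgeR adjusted p = 0.39). For the 2 cytosolic forms, the HSP90AA1 to HSP90AB1 ratio of FPKM was 0.311, 0.313 and 0.329 under NC-shRNA and 0.276, 0.271 and 0.254 under PRMT5-shRNA, without overlap (exact permutation p = 0.10, the smallest possible). Of HSP90AB1's 50-base windows, 16.6% occur in other genes, mostly processed copies, as do 11.3% of those of HSP90AA1, and how the counting assigned reads of such stretches was not given in the sources used here. HSP90AA1 also overlaps WDR20 on the other strand.

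**Figure D4:**
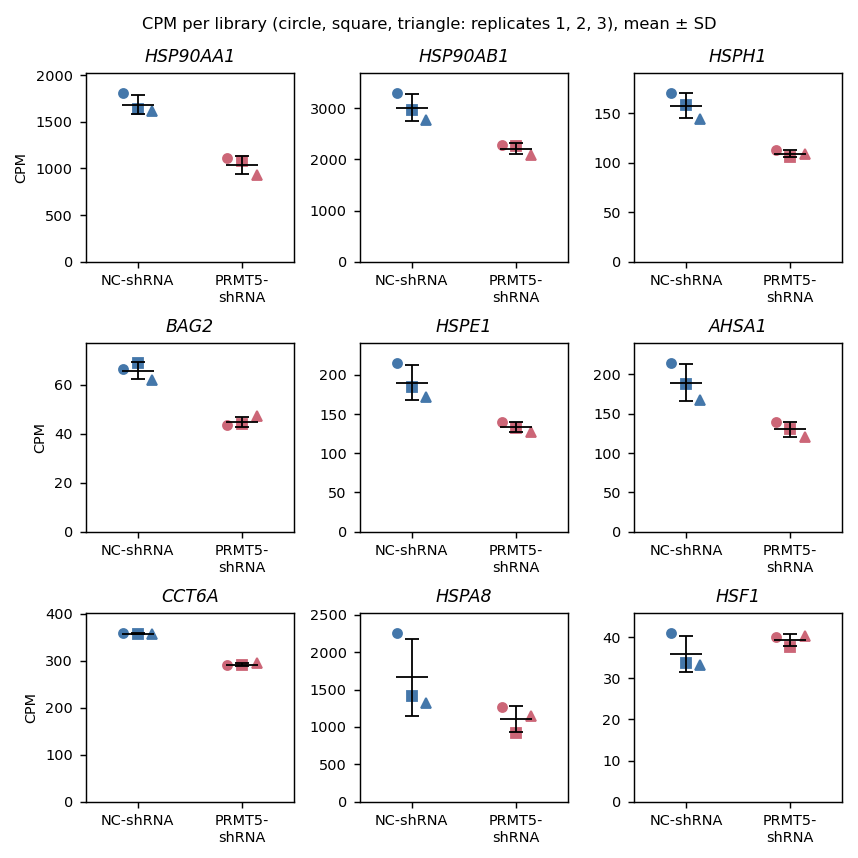
CPM of 9 chaperone genes and regulators in each library (y axis from 0), with circles, squares and triangles for replicates 1, 2 and 3 of NC-shRNA (blue) and PRMT5-shRNA (red) and black bars for the mean ± SD. The groups are apart in all panels but that of HSF1, and in the HSPA8 panel NC-shRNA replicate 1 lies far above the other controls.

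Co-chaperones of HSP90 divided into lower members and members near 0. AHSA1, which activates the HSP90 ATPase, had 214, 187 and 167 CPM under NC-shRNA and 139, 131 and 120.0 CPM under PRMT5-shRNA, a log2 change of -0.54 (SE 0.103, edgeR adjusted p = 0.17). FKBP4, an immunophilin of steroid receptor complexes, had 297, 259 and 235 CPM against 198, 201 and 181 CPM, with a log2 change of -0.45 (SE 0.095, edgeR adjusted p = 0.19). For both genes every knockdown library was below every control library.

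CHORDC1, an HSP90 partner with a run of 3 units shown above, and STIP1, which links HSP70 to HSP90, had log2 fold changes of -0.38 and -0.32 with edgeR adjusted p of 0.19 and 0.27. The other 4 co-chaperones did not reach p under 0.05. PTGES3 (p23), CDC37 (the kinase adaptor), ST13 (an HSP70 and HSP90 adaptor) and STUB1 (the ubiquitin ligase CHIP) had log2 fold changes of -0.10, -0.05, 0.00 and 0.01, with overlapping libraries. The PTGES3 value was less settled, at 240, 233 and 220 CPM under NC-shRNA and 187, 199 and 262 CPM under PRMT5-shRNA. It ranged from -0.26 to -0.004 over the alternative fits.

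In the HSP70 class, the constitutive cytosolic form HSPA8 had 2251, 1419 and 1318 CPM under NC-shRNA and 1260, 919 and 1140 CPM under PRMT5-shRNA. The groups did not overlap, but NC-shRNA replicate 1 decided the size: the log2 fold change was -0.59 (SE 0.218, edgeR adjusted p = 0.34) with it and -0.31 without it. HSPA9, the mitochondrial HSP70 (mortalin), had a log2 change of 0.00 with means of 1004 and 1001 CPM under NC-shRNA and PRMT5-shRNA, and HSPA13 had one of 0.09. HSPA2 had a log2 change of -0.31 (edgeR adjusted p = 0.35) at 7.58 to 10.7 CPM.

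Of the stress-inducible pair HSPA1A and HSPA1B, HSPA1A had the largest standard error of all members. HSPA1A had 180, 17.7 and 1.35 CPM under NC-shRNA and 6.32, 66.5 and 61.8 CPM under PRMT5-shRNA, a wide range in both groups, with a log2 change of -0.57 (SE 1.46, edgeR adjusted p = 0.91). Its sign was not stable: the log2 change was 2.23 without NC-shRNA replicate 1, 0.87 in limma-voom, 1.5 with a replicate block and 0.51 to 0.84 in fits of FPKM, and it ranged from -1.14 to -0.05 with another library left out. HSPA1B had 172, 121 and 83.2 CPM against 62.7, 68.9 and 73.0 CPM, with the groups apart and a log2 change of -0.88 (SE 0.24, edgeR adjusted p = 0.25).

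Reads of these genes are hard to assign. Their coding sequences of 1923 bases each differ at 4 bases (99.79% identical), and 71.3% of the 50-base windows of HSPA1A are also in HSPA1B. A coding stretch around one of the differences, with the differing base in capitals, is shown to make this visible.

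HSPA1A, chr6:31817417-31817476, plus strand: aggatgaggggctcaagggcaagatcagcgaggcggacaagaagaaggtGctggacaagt
HSPA1B, chr6:31829611-31829670, plus strand: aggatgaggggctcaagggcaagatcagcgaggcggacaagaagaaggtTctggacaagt

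The share of the pair's counts given to HSPA1A was 51.2, 12.8 and 1.6% under NC-shRNA and 9.16, 49.1 and 45.8% under PRMT5-shRNA, so it varied within each group. With counts summed, the pair had 352, 139 and 84.5 CPM under NC-shRNA and 69.0, 135 and 135 CPM under PRMT5-shRNA, which overlapped. The log2 fold change of the sum was -0.76 (SE 0.524, edgeR adjusted p = 0.59), and 0.02 without NC-shRNA replicate 1. DESeq2, which called HSPA1B alone, gave the sum a log2 change of -0.77 with an adjusted p of 0.66. The lower HSPA1B value is to be read together with its near-identical partner.

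**Figure D5:**
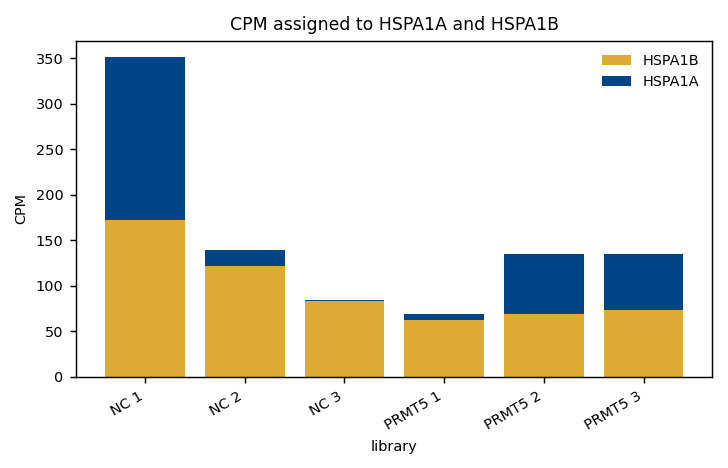
CPM assigned to HSPA1A (blue) and HSPA1B (yellow) in each library (NC for NC-shRNA and PRMT5 for PRMT5-shRNA, with replicate number), stacked so that the bar height is their sum. The sum reaches 352 CPM in NC-shRNA replicate 1 and 69.0 to 139 CPM in the other libraries, and the split between the genes differs from library to library.

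HSPA6, a strictly inducible HSP70, was barely detected, with 32, 34 and 12 counts under NC-shRNA and 6, 17 and 16 under PRMT5-shRNA, and 45.5% of its windows are shared with HSPA7. At this depth no difference was detectable (log2 fold change -0.87, SE 0.596, edgeR adjusted p = 0.59). HSPA1L had 2.13 to 3.11 against 1.54 to 2.33 CPM, with overlapping groups and a log2 change of -0.46, or -0.27 without NC-shRNA replicate 1. For HSPA6 the log2 change was -0.57 without PRMT5-shRNA replicate 1.

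HSPA14, which works at the ribosome, has 2 records that overlap each other on the same strand. ENSG00000284024 had 21.5, 20.6 and 20.2 CPM under NC-shRNA and 27, 28.1 and 24.5 CPM under PRMT5-shRNA, a log2 change of 0.35 (SE 0.0884, edgeR adjusted p = 0.22), and was the only member higher at p under 0.05. ENSG00000187522 had 31.0, 30.2 and 29.2 CPM against 26.5, 24.1 and 27.1 CPM, a log2 change of -0.22 (SE 0.0816, edgeR adjusted p = 0.34). The records thus lay on opposite sides of 0 with no overlap of groups in either, and reads in their shared 15.9% of windows of ENSG00000187522 cannot be placed with certainty. Of the windows of ENSG00000284024, only 8.29% occur in the other HSPA14 record. Where along ENSG00000284024 its reads fall was not examined, so the part of the shared windows in its higher value is not known.

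HSP110 proteins are exchange factors of HSP70, and all 3 were below control in every knockdown library. HSPH1 had 169.8, 158 and 144 CPM under NC-shRNA and 112, 105 and 109 CPM under PRMT5-shRNA, a log2 change of -0.53 (SE 0.0739, edgeR adjusted p = 0.10). HSPA4L had 61.2, 64.2 and 60 against 52.5, 46.7 and 55.1 CPM, a log2 change of -0.27 (SE 0.0808). HSPA4 had 371, 370.3 and 346 against 323, 312 and 334 CPM, the smallest of the 3 differences at a log2 change of -0.17 (SE 0.0554).

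In the mitochondrial chaperonin, both subunits were lower in each knockdown library. HSPE1, the lid, had 214.5, 184 and 171 CPM under NC-shRNA and 139.9, 132 and 127 CPM under PRMT5-shRNA, with a log2 change of -0.51 (SE 0.0924, edgeR adjusted p = 0.16). HSPD1, the barrel, had 1652, 1712 and 1663 against 1446, 1469 and 1411 CPM, with a log2 change of -0.22 (SE 0.0445, edgeR adjusted p = 0.18). The HSPD1 to HSPE1 ratio of FPKM was 3.41, 4.10 and 4.29 under NC-shRNA and 4.57, 4.91 and 4.91 under PRMT5-shRNA, which did not overlap (exact permutation p = 0.10, the smallest possible). HSPE1 overlaps HSPE1-MOB4 on the same strand, and its counts may hold reads of that record.

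The small heat shock proteins hold unfolded protein without ATP. HSPB1 (HSP27) had 135, 121 and 111 CPM under NC-shRNA and 101, 96.8 and 81.9 CPM under PRMT5-shRNA, a log2 change of -0.39 (SE 0.106, edgeR adjusted p = 0.25). HSPB8, the partner of BAG3, had 85.3, 77.7 and 70.7 against 65.6, 66.2 and 66.2 CPM, a log2 change of -0.24 (SE 0.0796, edgeR adjusted p = 0.31). Neither gene had overlapping groups. HSPB11 (IFT25, a ciliary transport protein) had a log2 change of -0.22, also without overlap, and CRYAB had one of 0.15 with overlap, at 8.97 to 12.9 CPM. The CRYAB value was 0.31 without NC-shRNA replicate 1 and 0.03 without replicate 3.

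Of the BAG proteins, which release clients from HSP70, BAG2 had the smallest p. It had 66.4, 68.8 and 62.1 CPM under NC-shRNA and 43.5, 43.9 and 47.1 CPM under PRMT5-shRNA, with a log2 change of -0.55 (SE 0.071, edgeR adjusted p = 0.09). BAG2 overlaps RAB23 on the other strand. BAG3, which directs clients to autophagy, had 68.7, 59.2 and 56.0 against 49.8, 49.4 and 43.9 CPM, with a log2 change of -0.36 (SE 0.0986, edgeR adjusted p = 0.25).

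The remaining BAG proteins and HSPBP1, an exchange factor of HSP70, did not reach p under 0.05. BAG1, BAG4 and HSPBP1 had log2 fold changes of -0.19, -0.26 and -0.12, and BAG5 had one of 0.09. BAG4 was the only one of these 4 whose libraries did not overlap. Without PRMT5-shRNA replicate 2, BAG1 was at -0.12 and BAG4 at -0.14, and without replicate 3 HSPBP1 was at -0.03.

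All 8 subunits of the CCT ring had negative fold changes, within a narrow span of -0.29 to -0.12, 5 of them at p under 0.05. CCT6A had 358, 357 and 358 CPM under NC-shRNA and 291, 290.2 and 295 CPM under PRMT5-shRNA, with a log2 change of -0.29 (SE 0.045, edgeR adjusted p = 0.11). CCT8 had 364, 334.5 and 345 against 291, 291 and 301 CPM, with a log2 change of -0.24 (SE 0.0537, edgeR adjusted p = 0.20). Both genes had tight replicates and no overlap.

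CCT3, CCT2 and CCT7 followed at -0.26, -0.25 and -0.21, and TCP1, CCT4 and CCT5 at -0.17, -0.15 and -0.12 did not reach p under 0.05. CCT5 was overlapping, with 1138, 966 and 852 CPM under NC-shRNA and 918, 937 and 872 CPM under PRMT5-shRNA. The most abundant subunit exceeded the least abundant by 4.45, 4.92 and 4.03 times under NC-shRNA and 4.22, 4.74 and 3.66 times under PRMT5-shRNA on the FPKM scale, which overlapped, so unequal abundance of the subunits was present in both groups. Without NC-shRNA replicate 1, CCT2 was at -0.16, TCP1 at -0.11, CCT4 at -0.08 and CCT5 at -0.0008.

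The fold changes were also set beside the promoter letters. The 6 members with a run of 3 units had a median log2 change of -0.52 (-0.87 to -0.22), and the 30 members with a window and no such run had a median of -0.24 (-0.88 to 0.16). Of the 6, HSPA6 at -0.87 had only 6 to 34 counts, and HSPA8 was at -0.59, or -0.31 without NC-shRNA replicate 1. HSPE1 at -0.51 was counted among the 30, although the HSPD1 stretch overlaps exons of HSPE1. The search took exact letters within these windows, so runs with a changed letter or farther from the start were not counted. HSPA1A and HSPA1B, with runs of 2 units only, and HSPH1, with neither, were among the 30. The medians were not worked out without NC-shRNA replicate 1. These are descriptions of members chosen by name and were not tested against each other.

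Neighbouring chaperone systems were followed with lists of their own. Of 6 prefoldin subunits, which hand actin and tubulin to CCT, all had negative fold changes with a median of -0.12, and PFDN6 was lower at p under 0.05 with a log2 change of -0.37 (edgeR adjusted p = 0.38), followed by PFDN5 at -0.20. Without NC-shRNA replicate 1 these were -0.18 and -0.07, PFDN6 was no longer past p under 0.05, and the list's median was -0.05. Of 14 other HSP90 co-chaperones, the median was -0.11 and NUDC was lower at p under 0.05, with a log2 change of -0.26, followed by PPID at -0.21. Without that library NUDC was at -0.14 and no longer past p under 0.05, with a list median of -0.06. The 3 CCT cofactors had a median of -0.08 with none past that threshold, PDCL3 being at -0.16 and PDCL at 0.12.

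Mitochondrial protein quality control, with 11 genes, had a median of -0.05. GRPEL1, the exchange factor of mitochondrial HSP70, was lower with a log2 change of -0.57 (edgeR adjusted p = 0.31), and LONP1, a matrix protease, was higher with one of 0.23 (edgeR adjusted p = 0.26). With NC-shRNA replicate 1 left out they were at -0.30 and 0.23, both still past p under 0.05, and the list's median was -0.02. Of 16 other heat shock genes 13 were tested with a median of -0.08, and HSPB7, HSBP1 and UBB were lower at p under 0.05 with log2 changes of -0.29, -0.26 and -0.22. Leaving out NC-shRNA replicate 1 gave -0.23, -0.15 and -0.13, none past p under 0.05. The pathway lists thus had medians between -0.12 and -0.05, beside -0.24 for the chaperone set and 0.01 for all genes.

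Markers of other cell types were summed as a check on the cells. Endothelial markers summed to 1.45 to 1.6 FPKM under NC-shRNA and 2.02 to 2.66 FPKM in PRMT5-shRNA. Of 5 tested, 4 were higher at p under 0.05, where 6.54% of all genes were higher. Their median log2 change was 3.0, which is the value of PECAM1. The endothelial sum was mostly CDH5, at means of 1.38 FPKM under NC-shRNA and 1.78 FPKM under PRMT5-shRNA. CDH5 had a log2 change of 0.30 (edgeR adjusted p = 0.38), or 0.28 and not past p under 0.05 without NC-shRNA replicate 1. TEK was at 0.01. Fibroblast markers summed to 8.38 to 9.71 and 8.44 to 10.2 FPKM, with 2 of 4 tested higher. Blood markers summed to 1.2 to 1.55 and 1.39 to 1.85 FPKM, with none of 3 past p under 0.05. The fibroblast sum was mostly DCN, with a log2 change of -0.24, or -0.12 without NC-shRNA replicate 1. COL3A1 was at 0.87 (edgeR adjusted p = 0.11) and PDGFRB at 0.57 (edgeR adjusted p = 0.23). COL1A2, PDGFRA and CD3E were at 0 counts in all 6 libraries, and VWF and KDR were at 0 counts under NC-shRNA and at 105 to 128 and 12 to 26 counts under PRMT5-shRNA. VWF had an edgeR adjusted p of 0.034, with a log2 change of 9.98 that depends on the 0 counts of its controls. PECAM1 had a log2 change of 3.0 (edgeR adjusted p = 0.19), at 5 to 30 counts under NC-shRNA and 100 to 109 under PRMT5-shRNA. Such a sum does not measure a share of cells, and the part of other cells in the chaperone values was not tested.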

How the data were processed

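RNA-seq of NCI-H460 cells with NC-shRNA or PRMT5-shRNA (3 libraries each) was analysed, with groups and replicate numbers from the labels. The processing notes name cutadapt 1.9, HISAT2 2.0.4, StringTie 1.3.4d and build GRCh38. The methods text names a mouse assembly instead. Deposited by the authors were estimated counts of each gene, not normalized, and FPKM values, scaled by gene length and library total. Each gene's count to FPKM ratio, scaled by library total, varied between libraries by a median of 1.02 times over 11246 genes, so the FPKM values are not independent of the counts. Counting of strand and overlaps was not given in the sources used here.

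The estimated counts, already whole, were normalized by TMM, filtered with filterByExpr and tested with edgeR's quasi-likelihood test (edgeR 4.0.16, limma 3.58.1, DESeq2 1.42.0, R 4.3.3) with Benjamini-Hochberg adjustment over 20295 genes. Single ratios and shares had exact permutation tests. The fits were tested on simulated data. Of counts from 1 to 40, 33.5% were multiples of 4, and whether 1 count stands for 1 fragment was not tested. No pair of libraries was a duplicate (chi-square at least 42.2 per degree of freedom).

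Named genes were PRMT5, HSF1, members with an adjusted p under 0.05 and, in each class, the 2 members of smallest p, or all of a class of up to 3. Values of other members, such as HSPA1A, HSPA8, HSPA6 and CCT5, were added after they were seen. For the other pathway lists the rule named the 2 genes of smallest p, and UBB was added after its value was seen. The members and lists were chosen with earlier results of these data known. Same-numbered libraries correlated at 0.0379, -0.0263 and 0.113 in their deviations from the group means, so the numbers were not taken to pair them. Alternatives were other normalizations, filters, tests and units, a replicate block, a gene length correction, counts divided by 4 and each library left out. Promoter windows are from RefSeq (GRCh38.p14), and gene records and shared windows from GENCODE 29, which held 58552 of the 58825 identifiers.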

Additional observations from a re-analysis of the deposited data

How the results depend on the processing

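Of 46 members, 41 kept the sign of their fold change under every alternative in which they were fitted. There were 21 such alternatives, of which HSPA6 was fitted in 16. No alternative but DESeq2 and the likelihood ratio test gave an adjusted p under 0.05 to a member: DESeq2 called 12 lower and 1 higher, and the likelihood ratio test 6 lower. The count lower at p under 0.05 was 16 to 26 over the alternatives and 20 to 24 with each library left out. The count higher was 1 to 3, with 3 without NC-shRNA replicate 1. With each library left out, 4.49 to 6.71% of all genes were lower and 4.72 to 6.69% higher. For the other alternatives the share of all genes at p under 0.05 was not compared. With a replicate block 26 members were lower at p under 0.05 and the median was -0.23, and no call at an adjusted p under 0.05 was gained. The median of the members was -0.15 in the limma fit on log2(FPKM + 1), in that fit with no filter and in the linear model per gene, and -0.16 with a pseudocount of 0.1, and the difference in share was -0.287 percentage points with CPM in place of FPKM (-0.175 as reported).

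Signs turned for 5 members. HSPA1A was at 0.87 in limma-voom, 0.51 in the limma fit on log2(FPKM + 1), with no filter and in the linear model, 0.84 with a pseudocount of 0.1, 1.5 with the replicate block, and -1.14 to 2.23 with a library left out. The summed pair was at -1.12 to 0.02 with a library left out, an alternative chosen after seeing the data. HSPA9 was at 0.05 with library size alone and in the FPKM fits, 0.001 with a mean CPM of at least 1, and -0.09 to 0.06 with a library left out. CDC37 was at 0.0008 with library size alone, 0.01 in the FPKM fits and -0.10 to 0.03 with a library left out. ST13 was at 0.05 with library size alone, 0.002 with a mean CPM of at least 1, 0.001 in limma-voom, 0.06 in the FPKM fits, 0.0001 with counts divided by 4 and -0.06 to 0.04 with a library left out. STUB1 was at -0.04 to 0.09 with a library left out. The cause was not tested. With 3 libraries a group, an exact permutation test cannot go below 0.10, and the depth of HSPA6 limits what could be detected.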
